A study of Mus musculus with 16 samples.

Results

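The broadest H3K4me3 domains of cultured CD8+ T cells were the 500 widest peaks of the 15779 in the H3K4me3 list of vehicle-treated (Veh) cells, selected on peak width (end minus start) with ties ordered by chromosome and start. They made up 3.17% of the Veh H3K4me3 peaks and 8.29% of the length under them, or 1.47 of 17.7 Mb. CD8+ T cells came from the spleens of OT1 mice, which carry a transgenic T cell receptor for an ovalbumin peptide. They were stimulated with anti-CD3 and anti-CD28 for 48 h and expanded in IL-2 for 3 days. GSK2879552 (GSK), which inhibits the demethylase LSD1 irreversibly, was given at 0.5 μM throughout, and control cells received vehicle instead. ChIP-seq, the sequencing of DNA that an antibody pulls down with its chromatin, was done in each treatment for RNA polymerase II (Pol II), LSD1 and the histone marks H3K27ac, H3K4me1, H3K4me2 and H3K4me3, with 6 antibodies in all. Each antibody and treatment had 1 library, so no spread between replicates was available and no test was made. Intervals in parentheses are 95% intervals that cover counting error alone, and neighbouring domains are not independent.

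H3K4me3 is laid down around the transcription start sites (TSSs) of active genes by the SET1 and MLL methyltransferases. At most promoters it spans a narrow zone on both sides of the TSS, but at some genes it runs far into the transcribed region. Such broad domains are known for covering genes that define a cell type. LSD1 takes methyl groups off H3K4me1 and H3K4me2 and not off H3K4me3, while H3K27ac and Pol II accompany active promoters.

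The promoters below show how differently the sequence in or beside broad domains can be built. Each runs from 250 bases before to 50 after a TSS, 300 bases in all, and comes from RefSeq on GRCm38.p6 (the mm10 build), printed 5′ to 3′ on the strand of the gene. Capitals mark matches, on either strand, to CCGGAAG (ETS core), GGGCGGG (SP/KLF), CCAAT (NFY), TGTGGT (RUNX), TGANTCA (AP-1) or CTTTGA (TCF/LEF). Nr4a3, Ptprc and Socs1 had the widest domains with a TSS inside among the transcription factors, the T cell receptor (TCR) genes and the cytokine signalling genes listed for T cells. Gzmb, from the effector genes, had a domain that began just downstream of its TSS, and it was added after its values were seen.
Nr4a3, chr4:48045055-48045354, plus strand: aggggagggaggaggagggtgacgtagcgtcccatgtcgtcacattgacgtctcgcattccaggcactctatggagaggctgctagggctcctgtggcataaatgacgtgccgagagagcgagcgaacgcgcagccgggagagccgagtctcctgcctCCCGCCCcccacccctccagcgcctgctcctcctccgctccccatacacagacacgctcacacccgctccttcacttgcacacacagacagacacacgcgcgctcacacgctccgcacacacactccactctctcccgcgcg
Ptprc, chr1:138175077-138175376, minus strand: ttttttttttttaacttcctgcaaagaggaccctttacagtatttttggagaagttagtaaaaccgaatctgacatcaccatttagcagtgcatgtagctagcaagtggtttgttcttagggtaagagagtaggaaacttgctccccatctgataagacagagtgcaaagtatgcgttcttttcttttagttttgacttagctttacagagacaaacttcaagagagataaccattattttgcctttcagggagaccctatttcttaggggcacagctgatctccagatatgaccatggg
Socs1, chr16:10785487-10785786, minus strand: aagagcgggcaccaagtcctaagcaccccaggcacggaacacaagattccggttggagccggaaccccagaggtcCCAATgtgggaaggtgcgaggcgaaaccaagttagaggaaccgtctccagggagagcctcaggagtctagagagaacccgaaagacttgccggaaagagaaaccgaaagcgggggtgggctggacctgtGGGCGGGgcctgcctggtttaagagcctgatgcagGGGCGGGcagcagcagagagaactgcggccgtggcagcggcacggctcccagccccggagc
Gzmb, chr14:56262285-56262584, minus strand: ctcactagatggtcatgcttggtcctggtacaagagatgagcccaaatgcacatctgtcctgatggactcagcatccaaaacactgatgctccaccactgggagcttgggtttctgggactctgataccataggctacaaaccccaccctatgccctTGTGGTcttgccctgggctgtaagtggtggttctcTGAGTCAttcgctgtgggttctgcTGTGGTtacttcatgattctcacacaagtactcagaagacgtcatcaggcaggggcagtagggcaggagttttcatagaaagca

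The Nr4a3 and Socs1 promoters were rich in CpG, with 26 and 18 CpG dinucleotides, and lay wholly inside their domains. The Ptprc promoter had 2 CpG dinucleotides, no match to the 6 motifs and 163 bases inside the domain. The Gzmb promoter also had 2 CpG dinucleotides and held 2 RUNX matches and 1 AP-1 match, but it had 0 bases inside the domain, which began 64 bp past the TSS. A match to a motif is a description of these letters and was not tied to binding of a factor.

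Over all domains the base composition was close to that of other H3K4me3 peaks. The median GC content was 56.8% (56.0 to 57.4) in the domains and 57.5% (57.3 to 57.6) in the 15279 other peaks. The ratio of observed to expected CpG was 0.680 (0.651 to 0.701) in the domains and 0.668 (0.664 to 0.671) in the others. Domains with a TSS had a CpG ratio of 0.705 (0.686 to 0.727), whereas the 87 without a TSS had 0.361 (0.300 to 0.476).

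Of 570 promoters whose TSS lay in a domain, the ETS core was found in 11.8% (9.36 to 14.7), against 21% (20.3 to 21.8) of 10236 promoters in other Veh H3K4me3 peaks and 8.86% of all 32851 promoters in the table. SP/KLF matches did not separate them, with 52.3% (48.2 to 56.4) in domains, 51.0% in other peaks and 25.6% of all promoters. In domains, other peaks and all promoters, NFY matches were in 37.4%, 37.5% and 37.4%, and RUNX matches in 9.47% (7.33 to 12.2), 11.5% and 16.8%. AP-1 matches were in 2.63% (1.60 to 4.30), 4.01% and 7.81%, and TCF/LEF matches in 10.2% (7.95 to 12.9), 10.4% and 16.0%.

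The domains were 2437 to 5480 bp wide, with a median of 2806 bp (2757 to 2853), and the other peaks had a median of 1012 bp. These widths chose the members and are given as a description. The choice fell within a tie: Tcf7, the progenitor T cell factor TCF1, had the last domain inside and Tbx21, the effector factor T-bet, the first peak outside, and each was 2437 bp wide. Just inside were also the domains of Rad51b and Zfyve26 (2443 bp) and of Ncor1 and Pigl (2445 bp), and just outside a peak near Gimap3 (2436 bp). The fold enrichment over background, a mean over the peak, had a median of 3.43 (3.36 to 3.5) in the domains and 5.79 in the other peaks, while the median −log10 p was 56.1 against 52.7. One domain stood apart in fold. It lay at chr9:3023448-3025890 with no curated RefSeq TSS within 1 kb, had a Veh H3K4me3 fold of 10.4 where the next highest of the 500, at Wiz, was 5.23, and carried a peak in all 12 lists, including Pol II folds of 22.4 in Veh and 22.0 in GSK. Peaks in all 12 lists were found on 6 domains in all. How uniquely reads map to the region on chr9 was not tested, so its folds cannot be taken as occupancy.

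The widest domain covered the start of Brd2, a bromodomain reader of acetylated histones, and of H2-DMa, which loads MHC class II, at chr17:34117883-34123362. It was 5480 bp in Veh and 4732 bp, in 2 pieces, in GSK. The second covered Nr4a3, an orphan nuclear receptor induced by TCR signals, with 5042 bp in Veh and 3859 bp in GSK. Next came a domain of 4751 bp in an intron of Bach2, a repressor that restrains effector differentiation, at chr4:32248032-32252782. No curated TSS lay in it, although the GENCODE annotation starts a transcript, Bach2it1, there. An equally wide domain began 92 bp from the TSS of Clec2d, a C-type lectin. Jarid2, a Polycomb cofactor, had 4554 bp, and Ptpn22, a phosphatase that dampens TCR signalling, had 4409 bp. The remaining 6 of the 12 widest lay at Trim8 (4387 bp), Tgif1 (4373 bp), Chd2 (4331 bp, with the TSS 49 bp away), Pim1 with Gm26885 (4271 bp), Tshz1 with Zadh2 (4257 bp) and Zfp36l2 (4225 bp). Pim1 is a kinase induced by IL-2, and Zfp36l2 promotes mRNA decay. A domain was called narrowed where its GSK width was under 0.8 of the Veh width, and widened where the Veh width was under 0.8 of the GSK width. Of these 12 domains, those of Nr4a3 and Tshz1 narrowed, with ratios of 0.765 and 0.726.

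A TSS lay inside 413 of the 500 domains, or 82.6% (79.0 to 85.7), against 61.9% of all Veh H3K4me3 peaks. The share was not particular to the domains, since it was 85.0% in the next 500 peaks by width and 86.0% at ranks 2001 to 4000, and 19.9% in the 3779 narrowest peaks. TSSs on both strands were found in 26% (22.3 to 30.0) of the domains and 8.55% (8.11 to 9.0) of the other peaks, which are narrower and have less room for them. Among the 277 domains with the TSSs of 1 gene, the median reach was 756 bp upstream and 2095 bp downstream of the outermost TSS, and 89.2% reached farther downstream. Other peaks with 1 gene reached 321 bp upstream and 816 bp downstream, with 88.3% farther downstream, a lean similar to that of the broad domains at a smaller size. Of the 87 domains without a TSS, 53 had a TSS within 1 kb, and 52 of these domains lay downstream of it. The gene starts of Cd8a, Cd28, Ctla4, Il2ra and Gzmb were all of this kind, with the TSS 35, 90, 38, 64 and 64 bp before the domain. The other 34 domains were farther away, and 17 of them held a TSS of the wider GENCODE annotation. Both J segment clusters of the T cell receptor beta locus were among them, with 3143 bp over Trbj1 segments (chr6:41534035-41537177) and 3062 bp over Trbj2 segments (chr6:41542834-41545895). In GSK these were 3208 and 3104 bp wide.

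In all, 555 genes had a TSS in a domain, 4.99% of the 11127 genes with a TSS in any Veh H3K4me3 peak. With a margin of 1 kb there were 624 genes, 4.77% of 13084. Long non-coding RNA genes were 12.3% (9.78 to 15.2) of the domain genes and 6.80% (6.35 to 7.29) of all genes with a peak. The curated start sites of 8 of 8 annotated CD8 T cell markers had a Veh H3K4me3 peak within 1 kb, and of these Cd8a lay at a broad domain. B cell markers had such a peak at 2 of 7 genes, macrophage and monocyte markers at 3 of 7, dendritic cell markers at 1 of 4, erythroid markers at 1 of 3, and NK cell markers and CD4 and regulatory T cell markers at 0 of 3 each. None of these other markers lay within 1 kb of a domain.

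Transcription factors of T cells were the list with the largest share in the domains. Of 41 with a TSS in a Veh H3K4me3 peak, 14 lay in a domain, 34.1% (21.6 to 49.5) against the 4.99% of all genes: Tcf7, Lef1, Bcl11b, Gata3, Ets1, Fli1, Ikzf1, Satb1, Eomes, Foxo1, Foxp1, Myb, Nr4a3 and Myc. A margin of 1 kb added Runx3 and Klf2, for 16 of 44. Myc, which drives growth of activated T cells, had 4052 bp in Veh and 4041 bp in GSK. Bcl11b, required for T cell identity, had 3416 bp in Veh and 3817 bp in GSK. Gata3, a factor of T cell development, had 3269 and 3311 bp, and Eomes, a T-box factor of memory cells, had 3231 and 3257 bp. Lef1, the partner of TCF1, had 3026 and 3121 bp. Tcf7 itself had 2437 bp in Veh and 2530 bp in GSK. Apart from Nr4a3, none of the 18 domains at these genes narrowed or widened with GSK, and the median GSK to Veh ratio was 1.01. Over all 500 domains 5.20% narrowed and 0.400% widened, so the counts at these genes were close to those shares. Among factors with a peak below the 500, Id2 had 2370 bp, Zeb2 1995 bp and Prdm1 1953 bp.

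**Figure D1:**
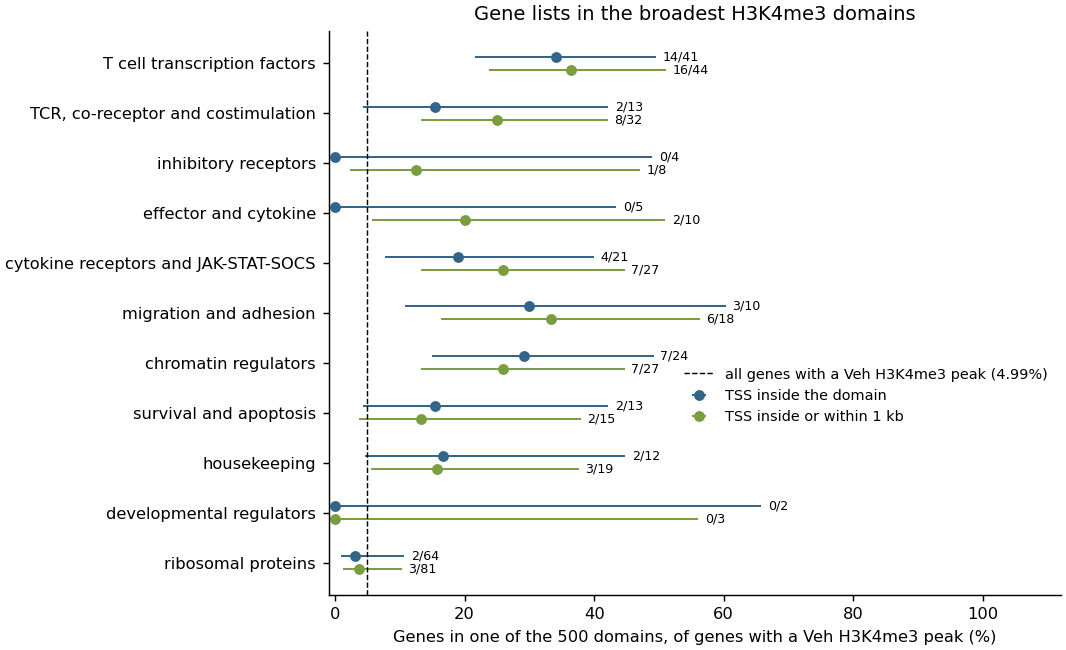
Share of each gene list that lay in a broad domain, in percent of the list's genes with a Veh H3K4me3 peak, by TSS inside the domain (blue) or within 1 kb (green), with Wilson 95% intervals and the counts beside them. The dashed line marks the 4.99% of all genes; transcription factors sit at 34.1% and ribosomal proteins at 3.12%.

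Other lists had smaller shares, but among them only the interval of ribosomal proteins lay wholly below that of the transcription factors. Migration and adhesion genes were at 30.0% (10.8 to 60.3) and chromatin regulators at 29.2% (14.9 to 49.2), also against the 4.99% of all genes. TCR, co-receptor and costimulation genes had 2 of 13 in a domain, Ptprc (CD45, 3190 bp) and Prkcq (PKC theta, 2700 bp), but 8 of 32 with the margin of 1 kb, with Themis (3297 bp), Cd2 (2928 bp), Cd28 (2855 bp), Cd8a (2752 bp) and Lcp2 (2515 bp) among those added. Among cytokine receptors and JAK-STAT-SOCS genes 4 of 21 lay in a domain. They were Jak2 (2456 bp) and the feedback inhibitors Socs1 (3928 bp), Cish (3282 bp) and Socs2 (2966 bp), and the margin added the IL-2 receptor chains Il2ra (3073 bp) and Il2rb (2516 bp) and Ifngr1 (2611 bp). Migration and adhesion genes had 3 of 10, with S1pr1, the receptor for egress from lymphoid tissue, at 3841 bp, Coro1a at 3278 bp and Arhgdib at 2924 bp.

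Chromatin regulators had 7 of 24, namely Kmt2a, Kmt2c, Kmt2d, Kdm6a, Ep300, Hdac7 and Arid1a, at 2524 to 3003 bp. The first 3 encode MLL methyltransferases for H3K4. Of survival genes, Bcl2 (3942 bp) and Bcl2l1 (3129 bp) made 2 of 13. Inhibitory receptors had 0 of 4 and effector and cytokine genes 0 of 5, while the margin of 1 kb gave 1 of 8 (Ctla4, 3446 bp) and 2 of 10 (Gzmb, 2521 bp, and Nkg7, 2516 bp). Ifng had 1070 bp and Pdcd1, encoding PD-1, had 996 bp. Housekeeping genes were not absent, with Actb (3933 bp) and Ubb (3079 bp) for 2 of 12, and ribosomal protein genes had 2 of 64, or 3.12% (0.861 to 10.7), close to the 4.99% of all genes. Developmental regulators had 0 of 2.

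Every domain kept H3K4me3 with GSK. A GSK H3K4me3 peak overlapped all 500, against 97.3% of all Veh peaks. The domains were chosen on width and have more room for an overlap of 1 bp, and the part of width in this difference was not tested. The summed width of the overlapping GSK peaks had a median ratio to the Veh width of 0.991 (0.986 to 0.994), and the other peaks had 0.992 (0.990 to 0.993). The 25th and 75th percentiles were 0.960 and 1.01. With GSK, 26 domains narrowed, 5.20% (3.57 to 7.51) against 7.40% of all peaks, and 2 widened, 0.400% (0.110 to 1.45) against 11.1%. Taking the widest peaks in Veh makes a smaller width in GSK more likely. Among the 500 widest GSK peaks the median ratio was 1.00, 3 were narrower in GSK and 30 were wider, so the excess of narrow over wide calls turned with the list that chose the domains. The 2 choices shared 429 domains.

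**Figure D2:**
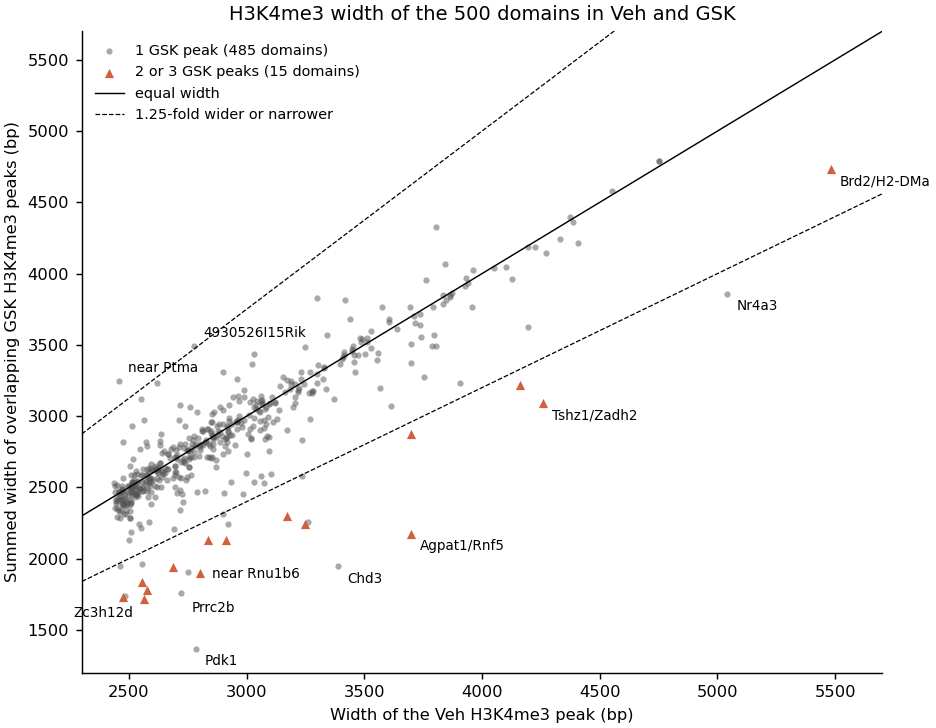
Width of each of the 500 domains in Veh (horizontal axis, bp) and summed width of the GSK H3K4me3 peaks on it (vertical axis, bp), with equal width as a solid line and a ratio of 0.8 either way as dashed lines. Most points follow the solid line, and 15 domains split into 2 or 3 GSK peaks (triangles).

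The largest fall was at Pdk1, a kinase that inhibits pyruvate dehydrogenase, from 2783 to 1365 bp. Its mean H3K4me3 fold was 3.97 in Veh and 6.42 in GSK. Each is a mean over the peak as called, so the 2 folds cover unequal lengths and do not measure a gain. Chd3, of the NuRD complex, went from 3389 to 1946 bp, and the domain of Agpat1 and Rnf5 from 3699 to 2173 bp in 3 pieces. Prrc2b went from 2721 to 1756 bp, and Zc3h12d from 2565 to 1719 bp in 2 pieces. A domain among small nuclear RNA genes, 26884 bp from Rnu1b6, went from 2800 to 1902 bp in 2 pieces. At Pdk1, Chd3 and the domain of Agpat1 and Rnf5, Pol II and H3K27ac each had a peak in Veh and none in GSK. Prrc2b had H3K27ac in Veh alone and no Pol II peak, and Zc3h12d had Pol II in both treatments and no H3K27ac peak. The small nuclear RNA domain had both in both treatments. H3K27ac in Veh alone was common, on 185 of the 500 domains, and the GSK list was shorter (2751 peaks against 7410). In the other direction, the domain near Ptma, encoding prothymosin alpha, went from 2456 to 3246 bp and that of 4930526I15Rik from 2776 to 3493 bp, and these were the 2 that widened. The next rises were near Wipf1 (2618 to 3235 bp) and at Tnfrsf26 (2552 to 3120 bp), Cpt1a (2514 to 2929 bp) and Shisa5 (3300 to 3831 bp).

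Of the 26 narrowed domains, 14 were in 2 or more GSK pieces, and 1 other domain was also split. Splitting touched 3.00% (1.83 to 4.89) of domains and 0.144% (0.0951 to 0.218) of the other peaks. The domains were chosen on width and have more room to be called in pieces, and the part of width in this difference was not tested. The narrowed domains had a Veh H3K4me1 peak in 10 of 26 cases, 38.5% (22.4 to 57.5), against 6.33% (4.47 to 8.89) of the 474 domains that did not narrow. Pol II differed too. Of 22 narrowed domains with a Veh Pol II peak, 12 had a GSK Pol II peak, 54.5% (34.7 to 73.1), whereas 328 of 381 of the remaining domains did, 86.1% (82.3 to 89.2). LSD1 peaks were found on 57.7% (38.9 to 74.5) of the narrowed domains in Veh and 69.2% (50.0 to 83.5) in GSK, and on 66.7% and 77.2% of the others, within these intervals.

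The marks that accompany active promoters were found on more of the domains than of the other peaks. H3K27ac peaks overlapped 376 domains in Veh, 75.2% (71.2 to 78.8), against 36.5% of all Veh H3K4me3 peaks, and 193 in GSK, 38.6% (34.4 to 42.9), against 15.0%. Pol II peaks overlapped 403 domains in Veh, 80.6% (76.9 to 83.8), against 47.4%, and 363 in GSK, 72.6% (68.5 to 76.3), against 39.5%. These shares were not particular to the domains. In the next 500 peaks by width, Pol II was on 80.2% in Veh and 72.0% in GSK, and H3K27ac on 74.8% and 39.0%. A wider region has more room for a peak, so windows of 1 kb on either side of a TSS were also compared. Around the 697 TSSs in domains the shares stayed higher than around 12185 TSSs in other H3K4me3 peaks, by 29.2 percentage points (25.6 to 32.5) for Veh H3K27ac and by 13.3 (9.75 to 16.6) for Veh Pol II. H3K27ac and Pol II were found together on 66.8% (62.6 to 70.8) of domains and 28.2% of other peaks in Veh.

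H3K4me2 and H3K4me1 went the other way. H3K4me2 peaks overlapped 42.4% (38.1 to 46.8) of domains in Veh, against 70.5% of all Veh H3K4me3 peaks, and 25.4% (21.8 to 29.4) in GSK, against 48.6%. H3K4me1 peaks overlapped 40 domains in Veh, 8.0% (5.93 to 10.7), against 36.9%, and 59 in GSK, 11.8% (9.26 to 14.9), against 42.0%. In the TSS windows the Veh shares were also lower at domains, by 42.7 points for H3K4me2 (33.4% against 76.2%) and by 30.7 points for H3K4me1 (16.1% against 46.8%). For marks at peak edges these windows do not remove the part of width. With the TSSs of 1 gene, domains reached a median of 756 bp upstream and 2095 bp downstream, and other peaks 321 and 816 bp. A window of 1 kb thus takes in more edges at other peaks, and the part of width was not tested. H3K4me1 stood at the shoulders of the domains. Within 2 kb outside the domain edges, 67.6% (63.4 to 71.6) of domains had a Veh H3K4me1 peak and 80.0% (76.3 to 83.3) a GSK peak, similar to the 69.8% and 80.2% of the other peaks. Veh H3K4me1 covered 17.1% of the first kb upstream, 0.641% of the middle of the domain and 12% of the first kb downstream. In GSK these were 20.1%, 0.639% and 15.8%. The GSK H3K4me1 list was longer over the whole genome (40272 peaks against 34387). By the study's own summary its library also held more unique read pairs. The shoulders were not compared at equal list length, so a rise there cannot be told apart from the longer list.

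**Figure D3:**
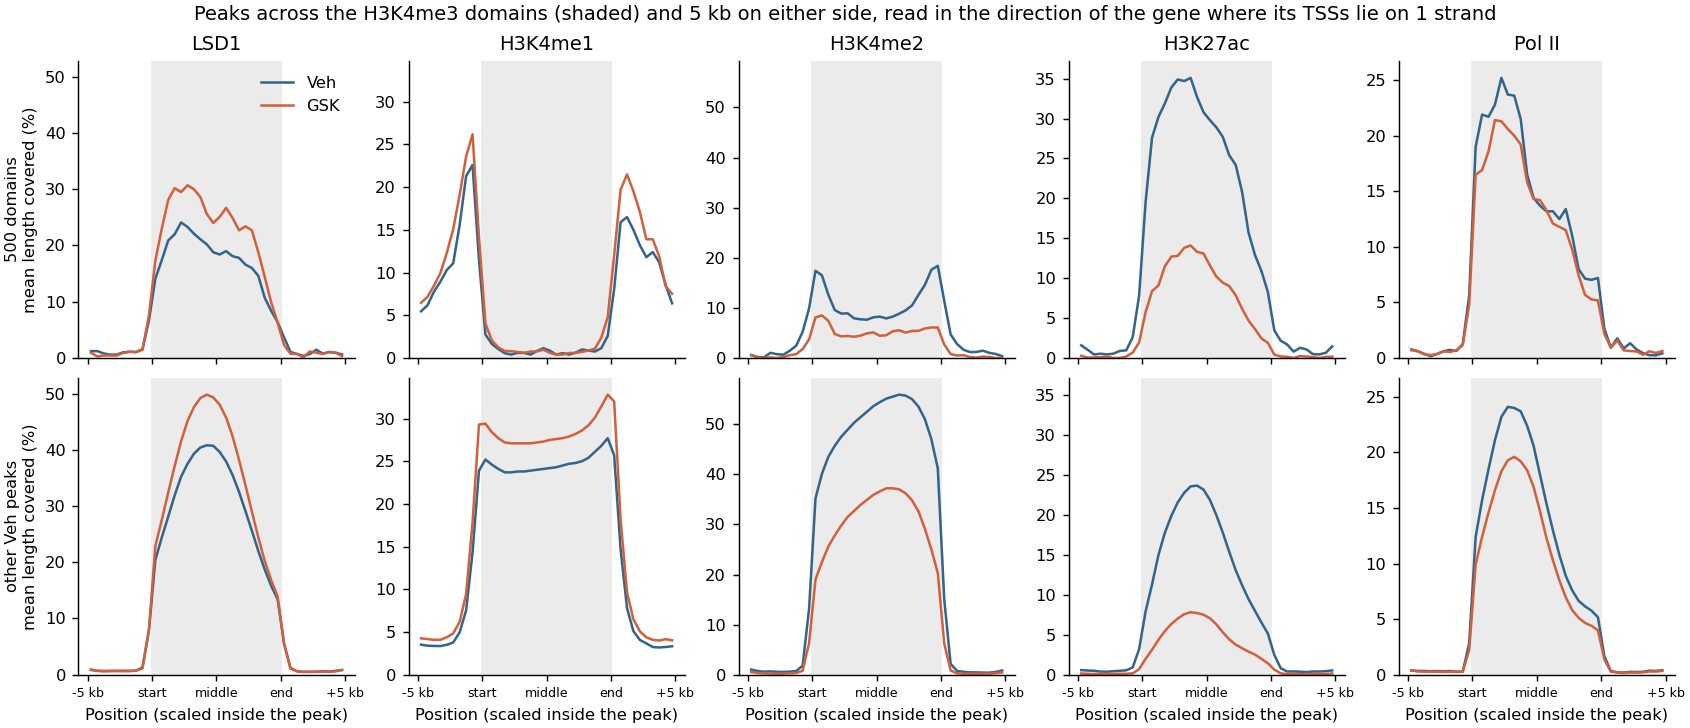
Mean share of length covered by peaks (vertical axis, percent) across the domains (upper row) and the other Veh H3K4me3 peaks (lower row), with the region scaled and shaded and 5 kb on either side, in Veh (blue) and GSK (orange). H3K4me1 lines both edges of the domains and is near 0 inside, whereas in the other peaks it lies inside as well.

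LSD1 was found on most domains. LSD1 peaks overlapped 331 domains in Veh, 66.2% (61.9 to 70.2), against 59.8% of all Veh H3K4me3 peaks, and 384 in GSK, 76.8% (72.9 to 80.3), against 66.3%. The Veh share was 70.0% (65.8 to 73.9) in the next 500 peaks by width, 74.8% (72.9 to 76.7) at ranks 2001 to 4000 and 34.3% in the 3779 narrowest, so the 59.8% is held down by narrow peaks. The sign of this difference depended on the unit, since around TSSs the Veh LSD1 share was 61.4% (57.7 to 64.9) at domains and 71.4% (70.6 to 72.2) at other peaks, and the GSK share 76.8% against 80.4%. LSD1 also covered less of a domain's length, with means of 17.5% in Veh and 23.1% in GSK against 30.4% and 35.7% in other peaks. Of the 331 domains with a Veh LSD1 peak, 299 kept one in GSK, or 90.3% (86.7 to 93.1), against 84.4% (83.6 to 85.1) of other H3K4me3 peaks. With single LSD1 peaks as the unit, 80.4% (76.3 to 83.9) were kept in domains and 82.2% (81.4 to 82.9) elsewhere. LSD1 peaks appeared on 85 domains with GSK alone and on 32 with Veh alone. Among the 15279 other H3K4me3 peaks the numbers were 2398 and 1423, so GSK alone was the larger group there too. Of domains without a Veh LSD1 peak, 50.3% (42.8 to 57.7) had one in GSK, against 38.9% of other peaks, which are narrower. On domains, the GSK-only peaks had a median fold of 4.0 (3.77 to 4.21), below the 4.54 (4.36 to 4.70) of GSK peaks on domains with LSD1 in both treatments.

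H3K4me2 and H3K27ac were called less often on the domains with GSK. For H3K27ac, 191 domains had a peak in both treatments, 185 in Veh alone and 2 in GSK alone. For H3K4me2 the numbers were 114, 98 and 13, for H3K4me1 29, 11 and 30, and for Pol II 340, 63 and 23. Among the 15279 other H3K4me3 peaks they were 2077, 3305 and 90 for H3K27ac and 7097, 3822 and 437 for H3K4me2. There they were 4847, 943 and 1721 for H3K4me1 and 5104, 1980 and 758 for Pol II, so the larger single-treatment group was the same as on domains. Of domains with a Veh H3K27ac peak, 50.8% (45.8 to 55.8) also had a GSK H3K27ac peak, against 38.6% of other H3K4me3 peaks. For Pol II these shares were 84.4% (80.5 to 87.6) and 72.0%. A wider region has more room for some GSK peak, and single peaks were not compared for these antibodies. For H3K4me2 the share was lower on domains, at 53.8% (47.1 to 60.4) against 65.0%. For H3K4me1 it was 72.5% (57.2 to 83.9), an interval that includes the 83.7% of other peaks. The GSK lists were shorter over the whole genome for H3K27ac (2751 peaks against 7410) and H3K4me2 (9437 against 15219). When the Veh list was shortened to the same length, the Veh share of domains was 33.0% (29.0 to 37.2) for H3K27ac, below the GSK 38.6%, and 24.6% (21 to 28.6) for H3K4me2, close to the GSK 25.4%. A fall of these marks on the domains cannot be told apart from the shorter lists. By the study's own summary of sequencing, the GSK libraries of both marks also held fewer unique read pairs than the Veh libraries, and its part in the shorter lists was not tested. The contrast with other peaks remained at equal length, with 33.0% against 14.8% for Veh H3K27ac and 24.6% against 49.1% for Veh H3K4me2. For H3K4me1 the GSK list was longer (40272 against 34387), and at equal length the GSK share was 10.6% (8.2 to 13.6).

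**Figure D4:**
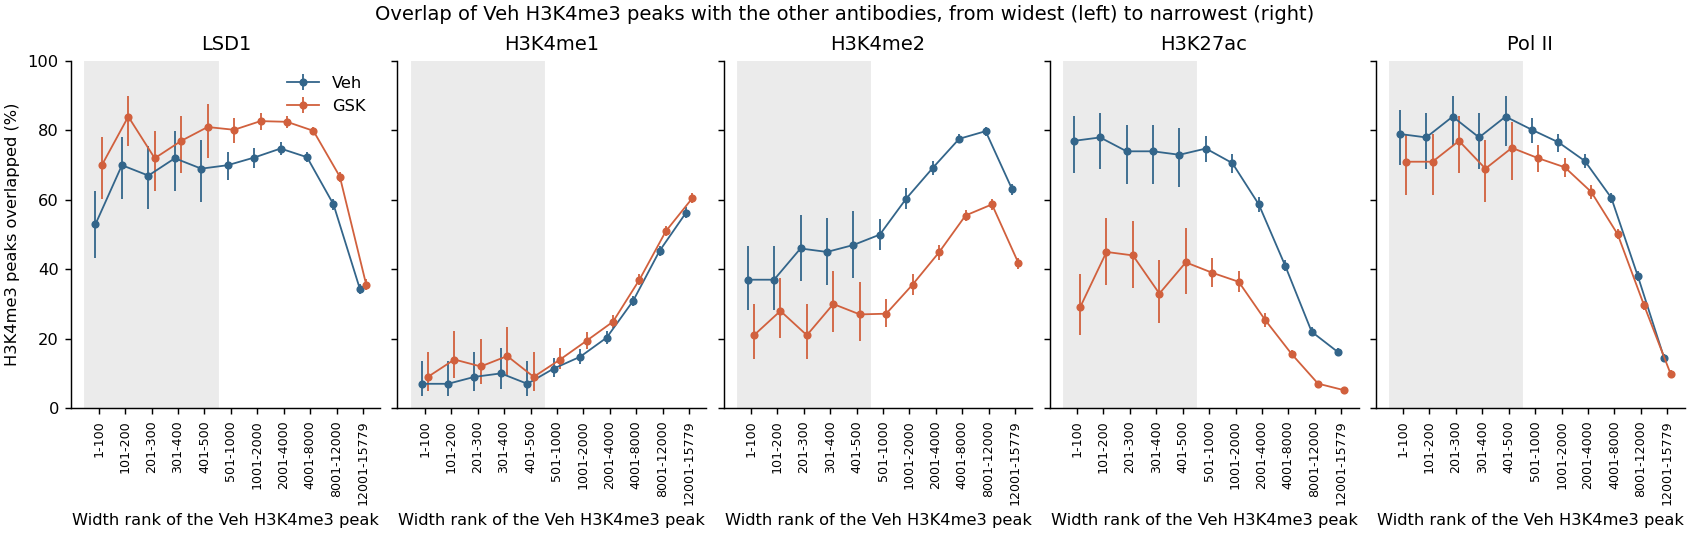
Share of Veh H3K4me3 peaks overlapped by a peak of each antibody (vertical axis, percent, with Wilson 95% intervals) in 11 classes of width rank, widest at the left, in Veh (blue) and GSK (orange), with the 500 domains shaded. H3K27ac and Pol II fall and H3K4me1 climbs from wide to narrow peaks.

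These shares changed gradually with width rather than at the 500th peak. Veh H3K27ac was found on 74.8% of the next 500 peaks by width and 58.7% of ranks 2001 to 4000, and Veh H3K4me1 on 11.4% and 20.3%. For Veh Pol II these shares were 80.2% and 71.2%, and for Veh H3K4me2 50.0% and 69.2%. Within the domains, Veh LSD1 was lowest in the 100 widest, at 53.0% (43.3 to 62.5), and 67.0 to 72.0% in the following 4 classes of 100. Veh Pol II stayed between 78.0 and 84.0% in all 5 classes. Along the domain, Pol II and H3K27ac leaned to the upstream side. With each domain scaled to 20 bins, Veh Pol II covered 22.1% of the first 5 bins and 8.07% of the last 5, and Veh H3K27ac 28.6% and 13.7%. Bins followed the direction of the gene where the TSSs lay on 1 strand. Other peaks leaned the same way, with 18.2% and 6.26% for Veh Pol II and 14.4% and 8.07% for Veh H3K27ac. On domains, Veh H3K4me2 was instead highest at the ends, with 13% of the first 5 bins, 8.30% of the middle 10 and 14.7% of the last 5. The summits of Veh Pol II peaks in domains lay a median of 256 bp (207 to 305) from a TSS, and those of LSD1 415 bp (375 to 495). In the other, narrower peaks these distances were 127 and 262 bp.

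The T cell transcription factors differed from the domains at large in H3K27ac and Pol II. Of their 18 domains, 7 had a Veh H3K27ac peak, 38.9% (20.3 to 61.4), and 9 had a Veh Pol II peak, 50.0% (29.0 to 71.0), below the 75.2% and 80.6% of all domains. LSD1 was found on 9 in Veh, 50.0% (29.0 to 71.0), and on 15 in GSK, 83.3% (60.8 to 94.2). These intervals include the 66.2% and 76.8% of all domains. Bcl11b had no peak of the other 5 antibodies in either treatment, which held for 6 domains in all. Gata3 had LSD1 in GSK alone, at a fold of 4.0. At Tcf7, LSD1 (fold 4.01) and H3K4me1 (2.92) had peaks in GSK alone, and H3K4me2 had folds of 3.65 in Veh and 5.57 in GSK. The Satb1 domain with a TSS inside went from 2996 to 2603 bp, with LSD1 folds of 3.83 and 5.68. Eomes carried LSD1 at folds of 5.37 and 5.16, Pol II at 3.38 and 3.23, and H3K27ac at 3.21 in Veh alone. Klf2 and Myc had the highest Pol II folds of these genes, with 11.9 in Veh and 8.87 in GSK at Klf2, and 10.4 and 8.61 at Myc.

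**Figure D5:**
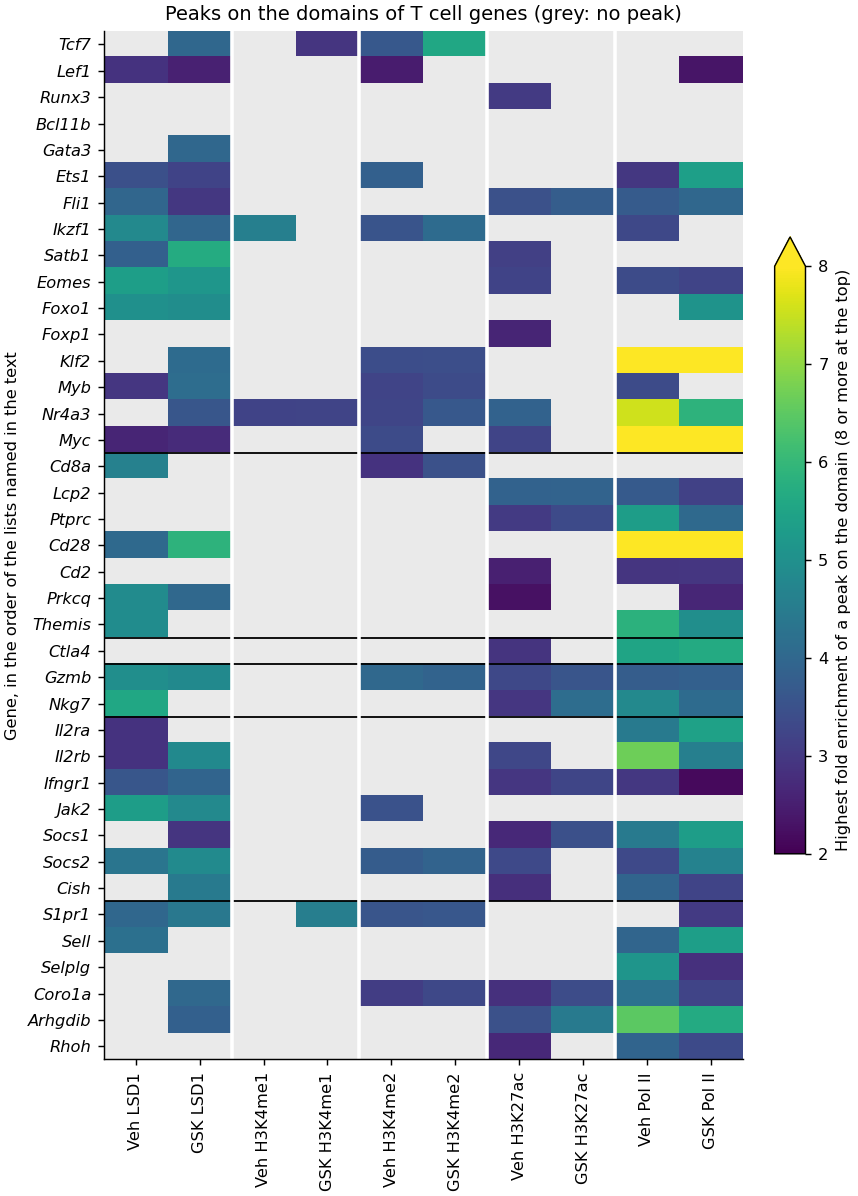
Highest fold enrichment of a peak on the domains of T cell genes (rows, separated by list) in the 10 libraries of the other antibodies (columns), with grey for no peak. Transcription factors vary, from Bcl11b with no peak to Nr4a3 with a peak of every antibody in Veh, GSK or both. Pol II is found at most receptor and signalling genes, as it is on most of all domains.

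Most receptor and signalling genes had Pol II. Of the 8 domains at TCR, co-receptor and costimulation genes, 6 had a Veh Pol II peak, 75% (40.9 to 92.9). A GSK Pol II peak was on 7, 87.5% (52.9 to 97.8), and these intervals include the 80.6% and 72.6% of all domains. None had H3K4me1 in either treatment (0 to 32.4%), an interval that includes the 8.0% in Veh and 11.8% in GSK of all domains. Cd28 had Pol II folds of 8.41 and 8.32 and LSD1 folds of 4.05 and 5.89 in Veh and GSK. Cd8a had LSD1 in Veh alone, at 4.64, and no Pol II peak. Among the 7 domains at cytokine receptor and signalling genes, Socs1 had Pol II folds of 4.48 and 5.34 and Il2rb 6.68 and 4.58. Ctla4 had Pol II at 5.51 and 5.67 and no LSD1 peak, and Gzmb had LSD1 at 4.96 and 4.84, H3K27ac at 3.30 and 3.58 and Pol II at 3.78 and 3.84. The domain of Gzmb was 2521 bp in Veh and 2553 bp in GSK. All 7 chromatin regulator domains had LSD1 in Veh and 6 in GSK, with intervals (64.6 to 100% and 48.7 to 97.4%) that include the 66.2% and 76.8% of all domains, and Kmt2a had LSD1 folds of 3.5 and 6.26 and widths of 3003 and 2734 bp.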

How the data were processed

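Per the labels, the authors mapped reads to mm10 with Bowtie2 and called peaks with MACS2. The methods give a p-value cutoff of 0.001. The deposited lists hold 12 ChIP libraries, as narrow peaks for LSD1 and Pol II and broad peaks for the histone marks. Each deposited peak has the authors' fold (ratio of ChIP to background, averaged over a broad peak), −log10 p, −log10 q and a score, which was not used. The 4 input samples were not analysed here. The lists give no depth. The study's summary gives unique read pairs per library, which were not equal between treatments, and a list can grow with them.

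A domain was overlapped at 1 bp. GSK width was the summed length of overlapping GSK H3K4me3 peaks. TSSs were those of 31603 curated RefSeq starts (26180 genes), and every peak ended within its GRCm38.p6 chromosome. Shares have Wilson intervals, differences Newcombe intervals and medians order-statistic intervals (Python 3.11.15, NumPy 2.4.6). Overlap, width and interval functions were tested on simulated data. Figures used matplotlib 3.10.9. Named genes were those of the 12 widest domains, of the 6 largest falls and rises, near the 500th peak and, by width, of each list. The members and lists were chosen with earlier results of these data known. The values of 1 gene that the lists count are not reported here. Factors below the 500 and genes in the account of marks were picked after their values were seen.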

Additional observations from a re-analysis of the deposited data

How the results depend on the processing

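No paired analysis was possible because each antibody and treatment had 1 library, and leaving out a replicate was not done. In all, of 166 alternatives to 35 results, 110 stayed within the 95% interval of the reported value, or within 1.5 times for a count of genes, and 56 moved.

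The median GSK to Veh width ratio was 0.985 by GSK length inside the domain alone, 1.00 in the 500 widest GSK peaks and 0.985 in the 1000 widest. The share narrowed was 2.40% by the span of the GSK peaks, 0.60% in the widest GSK peaks, 3.00% with peaks within 1 kb joined, 10.6% at 1.1-fold and 0.80% at 1.5-fold. The share widened was 0% by length inside the domain, 6.0% in the widest GSK peaks, 0% in the 250 widest, 3.20% at 1.1-fold and 0% at 1.5-fold.

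With a stricter peak threshold (−log10 of at least 5) the shares of domains in Veh and GSK were 57.8% and 71.2% for LSD1, 5.80% and 8.80% for H3K4me1, 23.8% and 11.2% for H3K4me2, 59.4% and 19.6% for H3K27ac, and 76.0% and 67.6% for Pol II. At 200 bp of overlap they were 4.0% and 5.0% for H3K4me1, 73.2% and 67.8% for Pol II, and 37.2% for Veh H3K4me2. In windows of 1 kb around TSSs they were 61.4% for Veh LSD1, 16.1% and 19.5% for H3K4me1, 33.4% and 21.5% for H3K4me2, 71.0% for Veh H3K27ac, and 72.6% and 65.6% for Pol II. Equal list lengths gave 24.6% for Veh H3K4me2 and 33.0% for Veh H3K27ac. Of Veh LSD1 peaks, 80.4% were kept with single peaks as the unit, the share of domains with a TSS was 91.8% with GENCODE starts, and the 250 widest domains held 9 T cell transcription factors. The cause of these movements was not tested.

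Depth limits these shares: a list holds called peaks alone, signal below the threshold was not seen, the libraries were not equal in depth by the study's summary, and biological variation was not measured.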
